A study of Mus musculus with 24 samples.

Results

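Genes of fatty acid oxidation and of the peroxisome were compared between AdipoQ-LPL and Control mice in perigonadal fat. The list held 35 genes, chosen by their symbols, of the 24647 genes that carry a symbol on the array. Of these, 34 were matched to a transcript cluster, which is the array's unit for a gene, and all 34 passed the filter on low values. Cpt1b had no cluster under its symbol and was not analysed here. Where a gene had more than 1 cluster, the cluster of highest mean was used.

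AdipoQ-LPL mice (labelled AdipoQ-LpL -/+) carry a lipoprotein lipase transgene under the adiponectin promoter, which is active in adipocytes. Control mice (AdipoQ-LpL -/-) do not carry it. There were 12 male mice of each genotype on a C57BL/6 background, 9.5 weeks old by the labels, studied in calorimetry chambers and given high fat food (60% of its calories). They spent their last days singly housed, and fat was collected after 10 days of this diet, so both genotypes share the diet and no chow-fed mouse was compared. The study asked how fat with extra LPL, the enzyme that frees fatty acids from circulating triglyceride, responds to the first days of a high fat diet.

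As background, fatty acids that enter a cell are bound to coenzyme A, moved into mitochondria as carnitine esters and shortened step by step by beta-oxidation. Each round uses an acyl-CoA dehydrogenase, a hydratase, a hydroxyacyl-CoA dehydrogenase and a thiolase, with electrons passed on through the electron transfer flavoprotein. Peroxisomes carry out a parallel pathway that handles very long and branched chains. Many of these genes are known targets of the fatty acid-activated receptors of the PPAR family.

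Values are log2 values after RMA, a method that corrects, normalizes and summarises the probes of an array. A difference is the mean of AdipoQ-LPL mice minus the mean of Control mice on this scale. The number of arrays, 12 per genotype, limits the precision. In bulk fat, fewer cells of a type and less RNA per cell cannot be told apart. The animal numbers in the labels fell into separate runs, and the arrays formed 2 sets that followed them. The first set, numbers 289 to 437, held 8 AdipoQ-LPL and 5 Control mice with array medians of 6.86 to 6.97. The second set, numbers 842 to 877, held 4 AdipoQ-LPL and 7 Control mice with array medians of 7.22 to 7.29. Of the 34 genes, 28 differed between the sets by limma (adjusted p under 0.05, genotype in the model), and so did 82.9% of all clusters, a shift of the whole array. For that reason each comparison was also made with the set in the model and in each set alone.

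The targeted gene gave no check of the labels. Lpl ranged over 13.28, 13.48 and 13.84 (lowest, median, highest) in AdipoQ-LPL fat, and over 13.34, 13.65 and 13.81 in Control fat. Its difference was -0.10 (SE 0.07, limma adjusted p = 0.691) over all mice and -0.02 with the set as a block. Whether the Lpl cluster reads the transgene's transcript is not stated. The adipocyte marker Adipoq was bright in all 24 mice, between 11.48 and 12.16.

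Some mice stood apart by genes of other tissues. AdipoQ-LPL 4 had Alb at 11.6, Apoa1 at 8.24 and Ttr at 8.20, hepatocyte genes that were the highest of the 24 mice there. Acta1, a skeletal muscle gene, was 10.5 in Control 6, against at most 8.87 in the other mice. Crisp1, an epididymal gene, reached 13.9 in Control 6 and 10.7 in Control 9, and Lcn8, another, reached 8.44 in Control 5. The genes did not rise together: Lcn8 was 5.56 in Control 6 and 5.40 in Control 9, and Crisp1 was 6.91 in Control 5. Crisp1 was also 7.26 in AdipoQ-LPL 3 and 6.91 in Control 8, and both mice were kept when mice of high markers were left out. The motile cilia genes Dnahc5 and Rgs22, picked after their values were seen, were highest in AdipoQ-LPL 8 (8.15 and 8.57), Control 3 (9.09 and 9.42) and Control 7 (8.42 and 9.10), against at most 7.22 and 7.27 in the other 21 mice. Next came Control 11 (7.22 and 7.21) and AdipoQ-LPL 10 (6.93 and 7.27), also raised, which were kept when those 3 mice were left out. Counts of the listed genes and some genotype differences are also given without AdipoQ-LPL 4 and 8 or Control 3, 5, 6, 7 and 9. Correlations were not recomputed without these mice as a group.

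The promoter of Acad11 is shown because this gene had the lowest p of the list, that of Hadhb because it is shared head to head with Hadha, the gene of its partner subunit, and that of Ucp3 because it had the largest difference of the first array set. Sequences are from RefSeq, build GRCm38.p6, each of 300 bases read 5′ to 3′ on the strand of the gene. The windows are chr9:104063474-104063773 (plus strand) for Acad11, chr5:30155003-30155302 (plus strand) for Hadhb and chr7:100472741-100473040 (plus strand) for Ucp3. Capitals mark GGGCGG and CCAAT on either strand in the Acad11 and Hadhb windows, and AGGTCA, the half-site of nuclear receptors, on either strand in the Ucp3 window.
Acad11 promoter: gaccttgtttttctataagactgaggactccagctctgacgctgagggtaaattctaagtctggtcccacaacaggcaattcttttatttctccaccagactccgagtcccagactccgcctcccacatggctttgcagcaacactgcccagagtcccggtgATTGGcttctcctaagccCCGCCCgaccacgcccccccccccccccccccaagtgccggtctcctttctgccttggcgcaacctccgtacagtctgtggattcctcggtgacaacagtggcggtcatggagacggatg
Hadhb promoter: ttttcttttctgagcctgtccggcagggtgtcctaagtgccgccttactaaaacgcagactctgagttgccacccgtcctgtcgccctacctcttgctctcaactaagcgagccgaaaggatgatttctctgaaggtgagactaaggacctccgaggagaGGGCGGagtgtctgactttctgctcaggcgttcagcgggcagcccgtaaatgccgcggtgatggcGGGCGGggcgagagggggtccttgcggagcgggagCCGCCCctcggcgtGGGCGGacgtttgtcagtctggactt
Ucp3 promoter: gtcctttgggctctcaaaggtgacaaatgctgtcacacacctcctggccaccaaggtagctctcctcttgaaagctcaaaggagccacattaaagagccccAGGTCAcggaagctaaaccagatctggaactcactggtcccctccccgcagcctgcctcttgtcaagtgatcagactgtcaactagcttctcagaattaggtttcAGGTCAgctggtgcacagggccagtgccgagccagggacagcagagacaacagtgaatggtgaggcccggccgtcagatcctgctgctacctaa
The Acad11 window held 1 GGGCGG and 1 CCAAT, the Hadhb window 4 GGGCGG, and the Ucp3 window 2 AGGTCA. The start sites of Hadha and Hadhb, on opposite strands, were 272 bases apart and their windows shared 228 bases.

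A window was found for 28 of the 35 genes, 31 windows in all, and each motif was searched on both strands. The direct repeat of PPAR receptors, searched as a pair of AGGTCA copies with any 1 base between them, was in 0.0396% of all 32851 mouse windows and in none of the listed genes' windows. The longer half-site TCAAGGTCA, known from ERR receptors, was in 0.423% of all windows and in none of theirs. The half-site AGGTCA, which is contained in both, was in 16.3% of all windows and in those of Acadm, Acadvl, Cpt1a, Echs1 and Ucp3. GGGCGG was in 35.7% of all windows and in windows of 20 of the 28 genes, and CCAAT in 37.4% and 14 of 28. A match describes these letters in this window and says nothing of what binds there.

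Over all 24 mice, none of the 34 genes passed limma at an adjusted p under 0.05 (two-sided, Benjamini-Hochberg over 20208 clusters). In the same comparison, 0.0099% of all clusters passed. At the study's own thresholds of fold change and unadjusted p, none of the 34 genes was counted either, by limma or by the methods' t-test (0.584% of all clusters by limma). At an unadjusted p under 0.05, 1 of 34 genes was counted, Acad11, where 5.63% of all clusters were. The median difference of the 34 genes was -0.07, with 11 above 0, beside a median of -0.08 over all clusters with 21.1% above 0. With the set as a block, none passed (0.0099% of all clusters), 1 had an unadjusted p under 0.05 (8.37% of all clusters), and the median was 0.01 with 17 above 0, beside a median of 0.01 over all clusters with 53.7% above 0. The list lay near the median of all clusters in both fits. With each array centred on its own median, 23 of 34 genes were above 0 over all mice and 19 with the set as a block, beside 61.7% of all clusters in each. One alternative moved this count: with weights for each array over all mice, 24 of the 34 genes were called, but so were 74.1% of all clusters, 72.6% being lower in AdipoQ-LPL fat, with weights from 0.248 to 3.42.

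**Figure D1:**
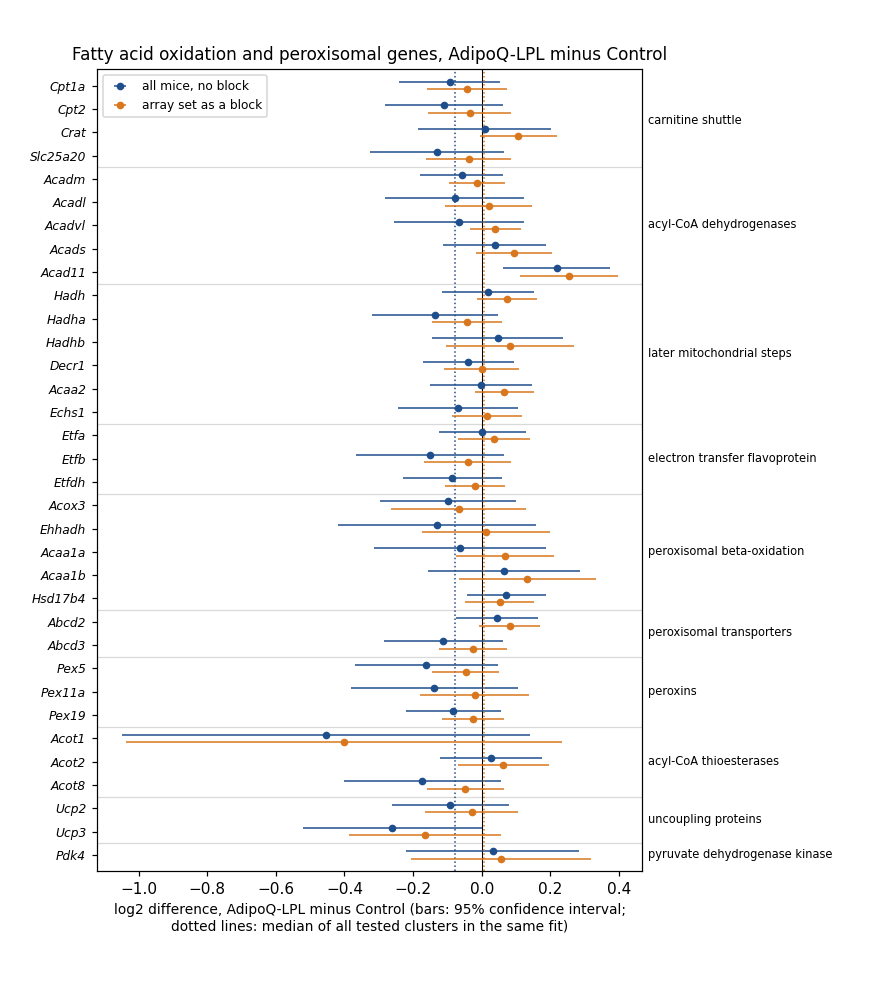
Log2 difference (AdipoQ-LPL minus Control, horizontal axis) of each of the 34 genes, grouped by role, in the fit over all 24 mice and in the fit that takes out the array set (orange), with limma's 95% confidence intervals. The interval lies above 0 in both fits for Acad11, at 0.22 and 0.25, and the dotted lines mark the median of all clusters in the same fit.

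In the carnitine shuttle, the route by which long chains enter mitochondria, no gene had an unadjusted p under 0.05 in either fit. Cpt1a, the outer membrane transferase that makes acylcarnitines, differed by -0.09 over all mice and -0.04 with the set as a block. Slc25a20, the translocase that carries acylcarnitines across the inner membrane, differed by -0.13 and -0.04. Cpt2, which returns the acyl group to coenzyme A, differed by -0.11 and -0.03. Crat, the carnitine acetyltransferase that buffers short acyl groups, ranged over 10.7, 10.9 and 11.4 in AdipoQ-LPL fat and over 10.5, 11.0 and 11.3 in Control fat. Its difference was 0.01 over all mice and 0.11 with the set as a block (95% interval -0.00 to 0.22, limma adjusted p = 0.608), 0.09 in the first set and 0.13 in the second, and the genotypes overlapped.

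Among the acyl-CoA dehydrogenases, which start each round of oxidation, Acad11 had the lowest p of the list. Acad11, a less studied member of the family, ranged over 9.49, 9.77 and 10.08 in AdipoQ-LPL fat and over 9.08, 9.55 and 9.83 in Control fat. The genotypes overlapped, and 11 of 12 AdipoQ-LPL mice lay above the Control mean of their own set. Its difference was 0.22 over all mice (SE 0.076, limma p = 0.00786, adjusted p = 0.691) and 0.25 with the set as a block (SE 0.069, limma p = 0.00111, adjusted p = 0.444), so it missed the threshold in both fits.

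Within the first set, Acad11 ranged over 9.49, 9.73 and 9.92 in AdipoQ-LPL mice, against 9.08, 9.46, 9.56, 9.61 and 9.77 in Control mice, a difference of 0.23 (exact permutation test, p = 0.0373). Within the second set it was 9.72, 9.89, 9.90 and 10.08 in AdipoQ-LPL mice, against 9.46, 9.53 and 9.83 (lowest, median, highest) in Control mice, a difference of 0.28 (exact permutation test, p = 0.0121). The sets gave like differences, and the interaction of genotype and set was 0.05 (limma p = 0.720). The lowest value of all was that of Control 3, a mouse with high cilia genes. Without Control 3 the first set gave 0.13 (exact permutation test, p = 0.139), and all mice with the set as a block gave 0.20. The exact permutation p of the first set was also 0.0768 without Control 1. It was 0.0530 to 0.0657 on omission of any 1 of AdipoQ-LPL 7, 8, 9, 11 and 12. In the second set the exact permutation p rose above 0.05 only without AdipoQ-LPL 1 (0.0583). Without all 3 mice of high cilia genes the first set gave 0.12 (exact permutation test, p = 0.173) and the second 0.26 (exact permutation test, p = 0.0286).

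In the first set, 6 of the 8 AdipoQ-LPL mice came from a run of animal numbers, 422 to 437, that held no Control mouse. Without these 6 mice, the first set gave 0.09 for Acad11 with 2 AdipoQ-LPL and 5 Control mice, and the block fit gave 0.21. In RefSeq, Acad11 spans 104063724 to 104127656 of chromosome 9, and Ackr4 (104097682 to 104126643) lies within that span.

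The other dehydrogenases act on chains of decreasing length. Acadvl (very long chains) differed by -0.07 over all mice and 0.04 with the set as a block, Acadl (long chains) by -0.08 and 0.02, and Acadm (medium chains) by -0.06 and -0.01. Acads (short chains) differed by 0.04 and 0.10. None of these 4 had an unadjusted p under 0.05 in either fit. Acadvl had the narrowest spread between mice of 1 genotype and set among the 34 genes, an SD of 0.067, where the median over all clusters was 0.158.

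**Figure D2:**
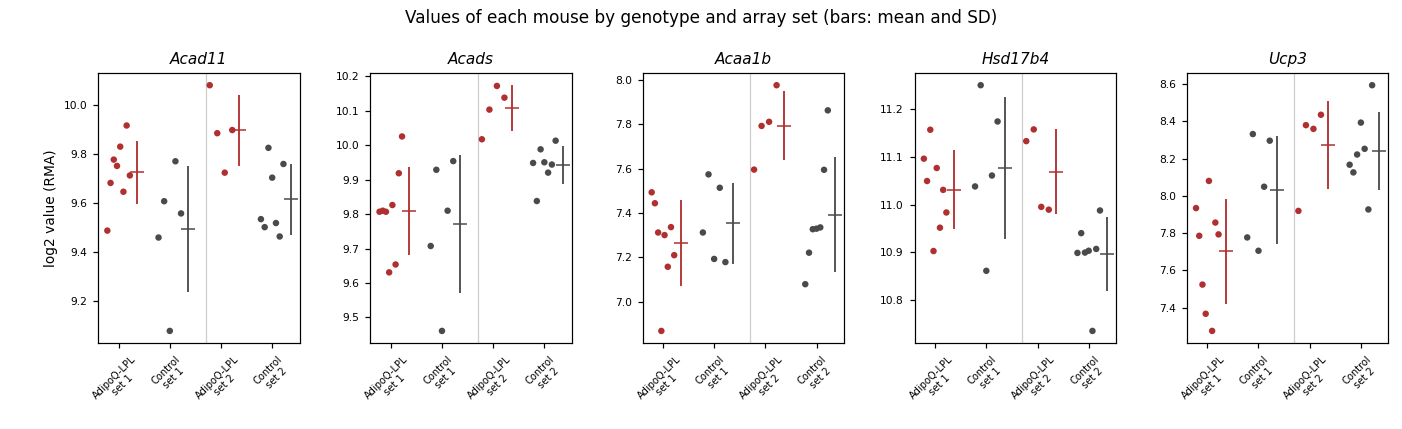
Log2 value (vertical axis) of 5 genes in every mouse, by genotype and array set, with mean and SD. Acad11 is higher on average in AdipoQ-LPL mice of both sets, Acads and Hsd17b4 do not overlap between genotypes in the second set, and Ucp3 averages lower in AdipoQ-LPL mice of the first set, with overlap.

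The later mitochondrial steps gave differences between -0.14 and 0.05 over all mice, none with an unadjusted p under 0.05. Hadha, the alpha subunit of the trifunctional protein for long chains, differed by -0.14 and, with the set as a block, by -0.04. Hadhb, its beta subunit with the thiolase, differed by 0.05 and 0.08, but its cluster of 5 probe groups lay between 5.25 and 6.11, close to the floor of 5. Echs1, the short-chain hydratase, differed by -0.07 and 0.02, and Hadh, the dehydrogenase of medium and short chains, by 0.02 and 0.07. Acaa2, the thiolase of mitochondria, differed by -0.00 and 0.07, and Decr1, the reductase needed for polyunsaturated chains, by -0.04 and -0.00. For the electron transfer flavoprotein, Etfa differed by 0.00 and 0.04, Etfb by -0.15 and -0.04, and Etfdh, the oxidoreductase that hands the electrons to ubiquinone, by -0.09 and -0.02.

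In peroxisomal oxidation, no gene had an unadjusted p under 0.05 in either fit. Ehhadh, the bifunctional enzyme, differed by -0.13 over all mice and 0.01 with the set as a block, and Hsd17b4, the bifunctional enzyme that also serves branched chains, by 0.07 and 0.05. The thiolases Acaa1a and Acaa1b differed by -0.06 and 0.07, and by 0.06 and 0.13. These are near-identical genes, each read by 4 probe groups, so their values are uncertain as to which gene they measure. Acox3, an oxidase of branched chains, differed by -0.10 and -0.07. Of the transporters that bring very long and long acyl-CoAs into peroxisomes, Abcd2 differed by 0.04 and 0.08, and Abcd3 by -0.11 and -0.03. The peroxins are proteins that build the organelle: Pex5, the import receptor, differed by -0.16 and -0.05, Pex11a, which acts in division, by -0.14 and -0.02, and Pex19, the chaperone of membrane proteins, by -0.08 and -0.03.

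Of the acyl-CoA thioesterases, which free the fatty acid from coenzyme A, Acot2 of mitochondria differed by 0.03 and 0.06 and Acot8 of peroxisomes by -0.17 and -0.05. Acot1, of the cytosol, is given further on. Ucp2 and Ucp3 encode uncoupling proteins of the inner mitochondrial membrane and are neighbours on chromosome 7. Ucp2 differed by -0.09 and -0.03. Pdk4, the kinase that shuts off pyruvate dehydrogenase and is induced by fatty acids, ranged over 8.33, 8.77 and 9.07 in AdipoQ-LPL fat and over 7.95, 8.69 and 9.20 in Control fat. It differed by 0.03 (95% interval -0.22 to 0.28) and 0.06 (-0.21 to 0.32), and the genotypes overlapped throughout.

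Ucp3 ranged over 7.28, 7.89 and 8.43 in AdipoQ-LPL fat and over 7.71, 8.19 and 8.59 in Control fat, a difference of -0.26 (limma p = 0.0501, adjusted p = 0.691) and, with the set as a block, of -0.17. Its values in the first set were 7.28, 7.79 and 8.08 (lowest, median, highest) in AdipoQ-LPL mice, against 7.71, 7.78, 8.05, 8.30 and 8.33 in Control mice. That difference was -0.33 (exact permutation test, p = 0.0676). Its values in the second set were 7.92, 8.36, 8.38 and 8.43 in AdipoQ-LPL mice, against 7.93, 8.22 and 8.59 in Control mice, a difference of 0.03. The difference between the sets, 0.36, did not pass limma's interaction test (p = 0.0949, adjusted p = 0.665).

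The sets were next compared one by one. The first set had 10 of 34 genes above 0, beside 48.9% of all clusters, with a median of -0.05 against -0.00 over all clusters. The second had 28 of 34 genes above 0, beside 57.5% of all clusters, with a median of 0.08 against 0.02. None passed limma's adjusted threshold in either set (0.0099% of all clusters in the first, 0.00495% in the second). At an unadjusted limma p under 0.05 there were 2 genes in the first set, Acad11 and Ucp3 (8.1% of all clusters), and 7 in the second, all higher in AdipoQ-LPL mice (6.5% of all clusters were higher at that p). With arrays centred, 10 were above 0 in the first set (51.4% of all clusters) and 30 in the second (67.1%). By the exact permutation test at an unadjusted p under 0.05, 1 gene was counted in the first set (8.3% of all clusters) and 9 in the second (9.07%), each higher in AdipoQ-LPL mice (6.37% of all clusters were higher at that threshold). After adjustment over all clusters the lowest exact permutation p among the genes was 0.552 in the first set and 0.408 in the second.

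**Figure D3:**
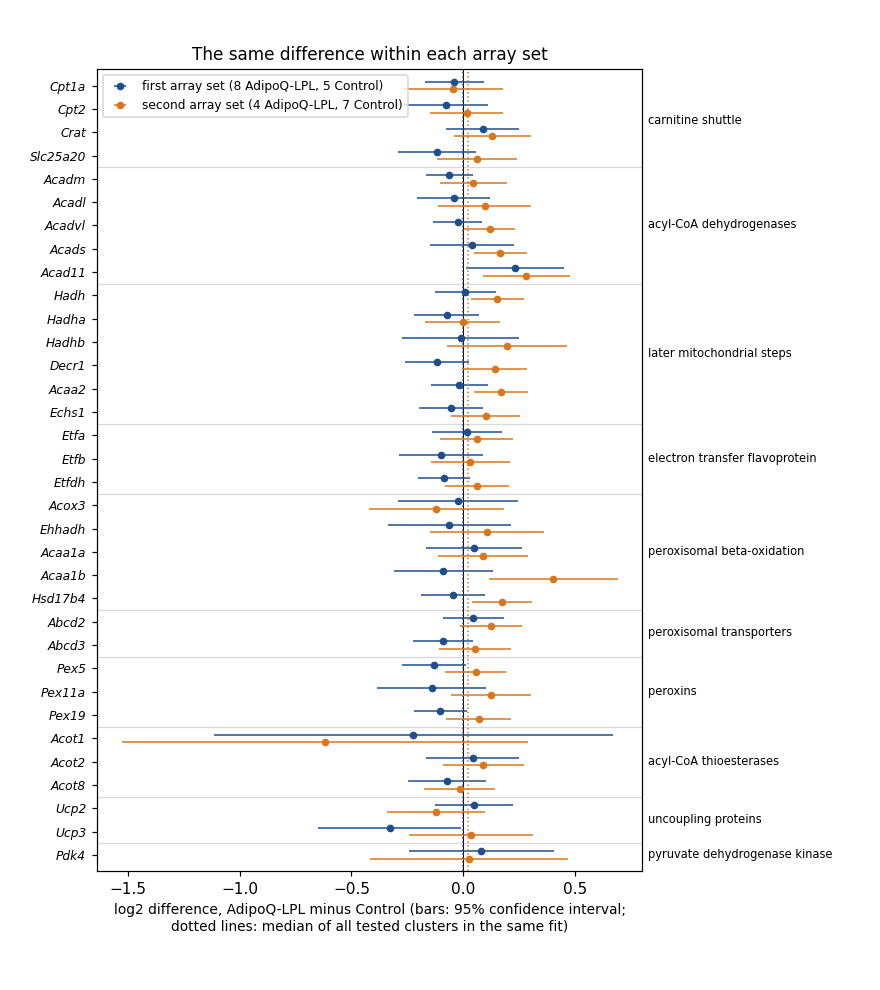
Log2 difference (AdipoQ-LPL minus Control, horizontal axis) of each of the 34 genes in each array set, with limma's 95% confidence intervals. Of the second set's points 28 lie above 0, where 10 of the first set's do, and the dotted lines mark the median of all clusters in each set.

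In the second set, 3 genes did not overlap between genotypes, where 1.05% of all clusters were higher without overlap. Acads was 10.02, 10.10, 10.14 and 10.17 in AdipoQ-LPL mice, against 9.84, 9.95 and 10.01 (lowest, median, highest) in Control mice, a difference of 0.16. Acaa2 was 9.97, 9.99, 10.05 and 10.05 in AdipoQ-LPL mice, against 9.76, 9.84 and 9.97 in Control mice, a difference of 0.17. Hsd17b4 was 10.99, 11.00, 11.13 and 11.16 in AdipoQ-LPL mice, against 10.74, 10.90 and 10.99 in Control mice, a difference of 0.17. Every AdipoQ-LPL mouse lay above every Control mouse for these 3 genes. Each had an exact permutation p of 0.00303, the smallest that the 330 relabellings of this set can give. In the first set the same genes differed by 0.04, -0.02 and -0.05 (exact permutation p = 0.692, 0.729 and 0.482).

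Hadh, in the same oxidation spiral, was 12.21, 12.31, 12.31 and 12.32 in AdipoQ-LPL mice of the second set, against 12.05, 12.14 and 12.23 in Control mice, a difference of 0.15 (exact permutation p = 0.00606). Acadvl was 9.65, 9.69, 9.72 and 9.72 in AdipoQ-LPL mice, against 9.50, 9.57 and 9.68 in Control mice, a difference of 0.12 (exact permutation p = 0.00909). Acaa1b was 7.60, 7.79, 7.81 and 7.98 in AdipoQ-LPL mice, against 7.08, 7.33 and 7.86 in Control mice, a difference of 0.40 (exact permutation p = 0.0303). In these genes the highest Control mouse lay within the AdipoQ-LPL range. Decr1 was 9.11, 9.15, 9.23 and 9.31 in AdipoQ-LPL mice, against 8.91, 9.06 and 9.23 in Control mice, a difference of 0.14 (exact permutation p = 0.0364). Abcd2 was 12.77, 12.79, 12.83 and 12.86 in AdipoQ-LPL mice, against 12.56, 12.74 and 12.79 in Control mice, a difference of 0.13 (exact permutation p = 0.0364). Both overlapped between genotypes. On omission of 1 mouse at a time, the exact permutation p reached 0.10 for Acaa1b, 0.133 for Decr1 and 0.10 for Abcd2. Without the 3 mice of high cilia genes it was 0.0619, 0.0619 and 0.0905. For Acads, Acaa2, Hsd17b4, Hadh and Acadvl the single omissions gave at most 0.0333. The first set gave 0.01 for Hadh, -0.02 for Acadvl, -0.09 for Acaa1b, -0.12 for Decr1 and 0.05 for Abcd2.

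Limma's interaction test, of whether the genotype difference differed between the sets, gave an unadjusted p under 0.05 for 7 of the 34 genes, beside 7.95% of all clusters, and an adjusted p of at least 0.603. No cluster passed the adjusted threshold there (0.0%). The 7 were Acaa1b, Decr1, Hsd17b4, Acaa2, Acadvl, Pex5 and Pex19, each with the larger value in the second set. No listed gene passed the adjusted threshold of this test, so for no gene is the genotype difference shown to differ between the sets.

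Marker levels are given beside these values. In the second set, the mean of 7 adipocyte markers was 12.38 to 12.45 in its AdipoQ-LPL mice, against 12.26 to 12.41 in its Control mice, with a median difference of 0.07 and all 7 above 0, none with an unadjusted limma p under 0.05. The mean of the hepatocyte markers was 7.66 to 9.39 (median 7.67) in AdipoQ-LPL mice and 7.37 to 7.98 (median 7.58) in Control mice, with AdipoQ-LPL 4 the highest. The mean of the epididymal markers was 5.67 to 5.97 (median 5.69) in AdipoQ-LPL mice and 5.29 to 7.46 (median 5.73) in Control mice. The mean of the brown or beige adipocyte markers, cells rich in these enzymes, was 6.39 to 6.86 in AdipoQ-LPL mice and 6.19 to 6.93 in Control mice. All 5 tested were above 0 (median difference 0.12), none with an unadjusted limma p under 0.05. The mean of 8 skeletal muscle markers was 6.31 to 6.51 in AdipoQ-LPL mice and 6.14 to 6.78 in Control mice. Of these, 5 were above 0 (median difference 0.07), against 1 in the first set (median difference -0.09). Each of these lists overlapped between genotypes in the second set.

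Markers of the mesothelium, the lining of the fat pad, ran opposite ways in the sets. In the second set 0 of 5 were above 0 (median difference -0.18), with a mean level of 7.61 to 8.73 in AdipoQ-LPL mice and 7.19 to 8.94 in Control mice. All 5 were above 0 in the first set (median difference 0.34), with 7.76 to 8.74 in AdipoQ-LPL mice and 7.78 to 8.64 in Control mice. Of 6 macrophage markers, 5 were above 0 in the first set (median difference 0.28, 2 with an unadjusted limma p under 0.05), with 8.99 to 9.76 in AdipoQ-LPL mice and 8.65 to 9.26 in Control mice. No marker of either list passed limma's adjusted test of the difference between the sets. The part of the marker levels in the listed genes' differences was not tested.

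Without AdipoQ-LPL 4 and Control 5, 6 and 9, an omission chosen after seeing the data, 29 of 34 genes were above 0 in the second set. The share of all clusters above 0 was not counted for this omission. In that set 3 genes had an exact permutation p under 0.05 (6.29% of all clusters in either direction). The first set had 1 such gene, Acad11 (7.32% of all clusters). Those of the second set were Acads (p = 0.0357), Acaa2 (p = 0.0357) and Hsd17b4 (p = 0.0179), by the exact permutation test over 56 relabellings. Acaa1b differed by 0.34 without AdipoQ-LPL 4 (exact permutation p = 0.10) and by 0.27 without all 4 mice.

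Without the 3 mice of high cilia genes, also chosen after seeing the data, the first set had 6 of 34 genes above 0. In that set, 4 genes had an exact permutation p under 0.05 (10.2% of all clusters in either direction), each lower in AdipoQ-LPL mice. The share of all clusters that were lower at that p was not counted. They were Pex19 (-0.13), Acadm (-0.10), Decr1 (-0.16) and Pex5 (-0.17). In the second set, 26 of 34 were above 0 and 6 had an exact permutation p under 0.05 (8.33% of all clusters in either direction). For this omission too, the share of all clusters above 0 was not counted.

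Acot1, the cytosolic thioesterase known as a PPAR target, had the widest spread of the list, an SD of 0.790 between mice of 1 genotype and set. It ranged over 4.67, 5.03 and 6.71 in AdipoQ-LPL fat and over 4.78, 5.31 and 7.54 in Control fat, a difference of -0.45 (SE 0.29, limma p = 0.129). Acot1 lay close to the floor of 5. Its medians were 4.89 in AdipoQ-LPL and 4.83 in Control mice of the first set, and 5.27 and 5.36 in the second. The 3 highest values were 6.71 in AdipoQ-LPL 8, 7.14 in Control 3 and 7.54 in Control 7, which are the mice of high cilia genes. Next came Control 11 at 6.28, whose cilia genes were also raised (Dnahc5 7.22, Rgs22 7.21), and Control 6 at 5.95. Without the 3 mice the difference was -0.25 over all mice, -0.01 in the first set and -0.33 in the second. Acot1 is read by 4 probe groups and has a near-identical neighbour, Acot2, on chromosome 12, so its values are uncertain.

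Acox3 was high in the same mice, at 8.64 in AdipoQ-LPL 8, 8.69 in Control 3 and 8.97 in Control 7, against at most 8.42 in the other mice. Crat was lowest in its group in each of them, at 10.7 in AdipoQ-LPL 8, 10.5 in Control 3 and 10.9 in Control 7. Over the 24 mice, after removal of the mean of each genotype and set, Acot1 correlated with Acox3 at r = 0.87 and with Crat at r = -0.86, and with Etfa, Acads, Abcd2 and Acaa2 at r between -0.79 and -0.72. Its correlation with the cilia genes Dnahc5, Rgs22 and Ttc21a was 0.95 to 0.96. These are descriptions over mice that share 3 high animals, with the cilia genes also raised in Control 11 and AdipoQ-LPL 10. These correlations were not recomputed without those mice. The part of other cells in these correlations was not tested. The mean of the epididymal markers was highest in Control 6, at 7.46, where Crisp1 was 13.9 and Lcn8 5.56. Whether these markers and the cilia genes come from the same cells was not tested.

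**Figure D4:**
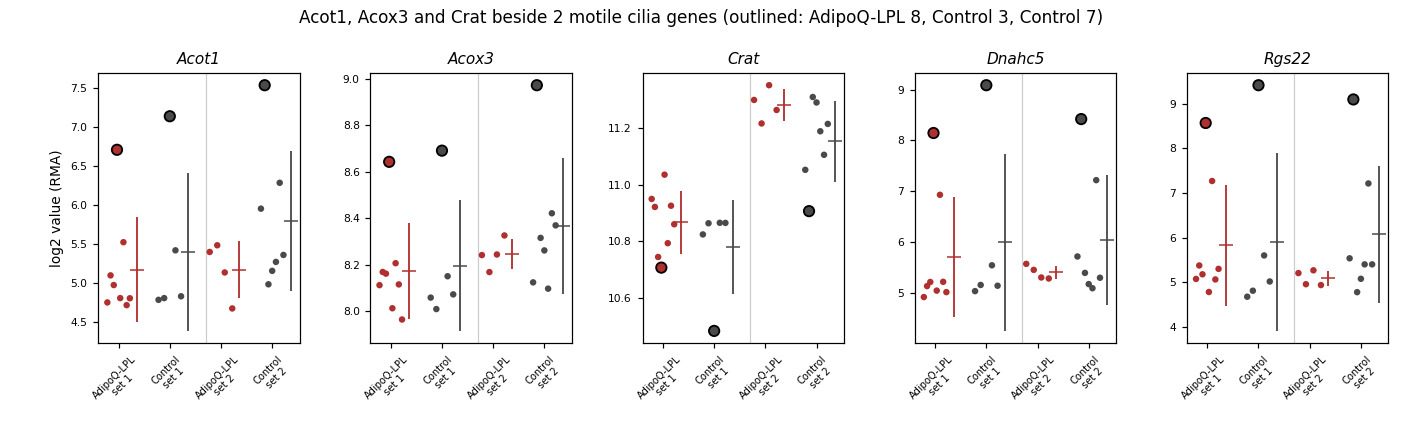
Log2 value (vertical axis) of Acot1, Acox3, Crat and the cilia genes Dnahc5 and Rgs22 in every mouse, by genotype and array set, with mean and SD. The outlined mice, AdipoQ-LPL 8, Control 3 and Control 7, are highest for Acot1, Acox3 and both cilia genes and lowest of their group for Crat.

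Apart from Acot1, the spread between mice of 1 genotype and set was widest for Pdk4 (SD 0.326), Ucp3 (0.258), Acox3 (0.239), Ehhadh (0.224) and Hadhb (0.221). It was narrowest for Acadvl (0.067), Acaa2 (0.082), Acadm (0.083), Etfdh (0.087) and Hadh (0.088). The 5 narrowest all act in mitochondrial oxidation, but the peroxisomal genes Pex19 (0.090), Abcd2 (0.096) and Hsd17b4 (0.099) came next.

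**Figure D5:**
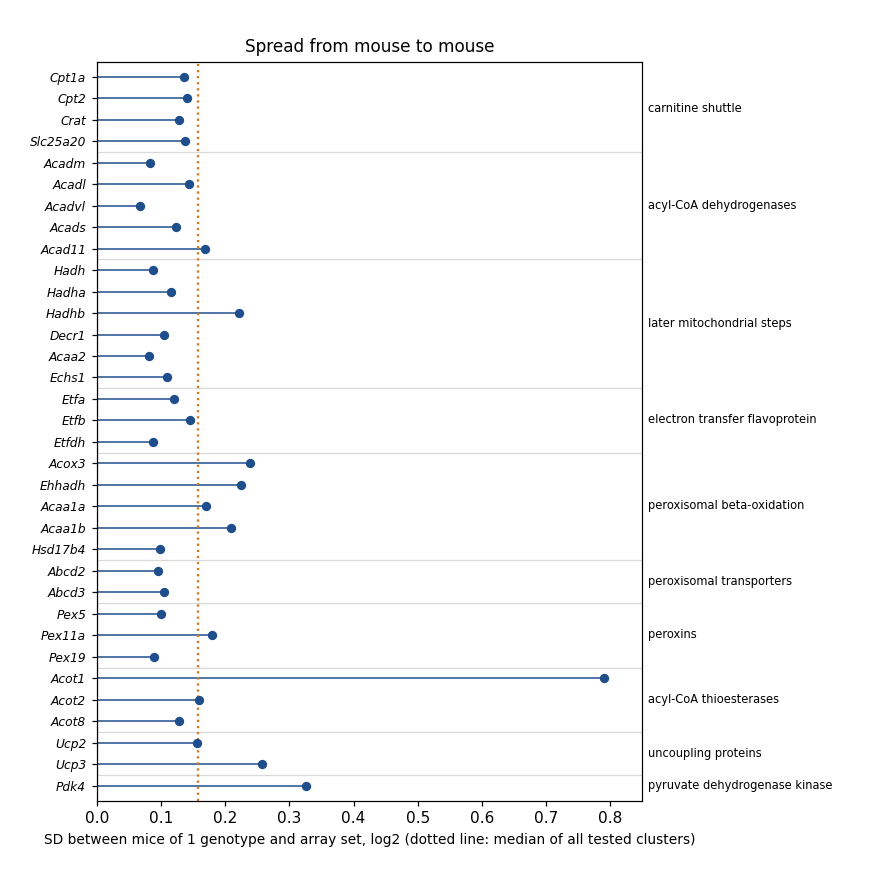
Residual SD between mice of 1 genotype and array set (horizontal axis, log2 units) for each of the 34 genes, with the median of all clusters, 0.158, as a dotted line. Acot1 lies farthest right at 0.790 and Acadvl farthest left at 0.067.

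Co-variation from mouse to mouse was tested for 9 pairs in each set, 18 correlations in all, on values minus the mean of their genotype. Etfa and Etfb, the subunits of 1 protein, gave r = 0.84 and rho = 0.85 in the first set (permutation test, adjusted p = 0.0178 and 0.0218, 13 mice). Without the 2 mice farthest from the median of Etfa, r was 0.66 (permutation test, p = 0.0353, adjusted p = 0.615), so the adjusted call was lost at a smaller r. In the second set r was -0.02. Pdk4 and Acot1 gave r = -0.86 and rho = -0.78 in the second set (permutation test, adjusted p = 0.0405 and 0.101, 11 mice). Without the 2 mice farthest from the median of Pdk4, r was -0.58 (permutation test, adjusted p = 0.615). In the first set r was -0.52 (permutation test, adjusted p = 0.275). Hadha and Hadhb, with their shared promoter, gave r = -0.01 in the first set and 0.73 in the second (permutation test, adjusted p = 0.985 and 0.126). None of the other pairs passed an adjusted p of 0.05 in either set. Over all 561 pairs of the 34 genes the median r was 0.38 in the first set and 0.21 in the second.

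The other genes of the pathway, 106 listed with 98 tested, gave no call by limma over all mice. At an unadjusted p under 0.05, 6 of the 98 were counted over all mice, each lower in AdipoQ-LPL fat (4.74% of all clusters were lower at that threshold). Above 0 were 17 of 98, beside 21.1% of all clusters. Acsl3, a long-chain acyl-CoA synthetase, averaged 6.88 ± 0.34 in AdipoQ-LPL and 7.22 ± 0.25 in Control fat (SD, n = 12 each), a difference of -0.34 (limma adjusted p = 0.691) that was -0.42 in the first set and -0.01 in the second. The thioesterases Acot7, Them4, Acot6 and Acot13 differed by -0.25, -0.36, -0.22 and -0.19, and Agps, an enzyme of ether lipid synthesis, by -0.13. The lowest p in the other direction were those of Pxmp2 (0.21), Ivd (0.12), Txnip (0.16) and Vnn1 (0.34), none with an unadjusted p under 0.05. Other peroxins gave 0 of 11 above 0 over all mice and 7 of 11 with the set as a block. All 9 tested thioesterases outside the list had differences below 0 over all mice, and 3 of 9 were above 0 with the set as a block. Of all clusters, 21.1% were above 0 over all mice and 53.7% with the set as a block, so most clusters lay below 0 over all mice.

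With the set as a block, 59 of the 98 were above 0, beside 53.7% of all clusters. At an unadjusted p under 0.05 there were 6 higher and 3 lower (5.87% and 2.5% of all clusters). The 6 were Acss1 (0.17), which makes acetyl-CoA in mitochondria, the peroxisome family transporter Abcd4 (0.13), the propionyl-CoA carboxylase subunit Pccb (0.10), the leucine pathway dehydrogenase Ivd (0.17), the peroxisomal membrane protein Pxmp2 (0.24) and the thiolase Acat1 (0.08). The 3 lower were Acsl3 (-0.23), Acot7 (-0.16) and Them4 (-0.18). Among regulators, Ppara, the receptor that drives these genes in liver, averaged 6.57 ± 0.20 in AdipoQ-LPL and 6.63 ± 0.16 in Control fat. Ppargc1a, a coactivator of mitochondrial genes, averaged 7.16 ± 0.46 in AdipoQ-LPL and 7.37 ± 0.54 in Control fat (SD, n = 12 each), with differences of -0.06 and -0.21 that limma did not call.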

How the data were processed

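The authors scanned an Affymetrix exon array for the fat of each of 24 mice with RMA as the normalization. The deposited matrix gives log2 values for 41345 transcript clusters, 27037 of them with a gene symbol. Per the submitters' processing notes the tools were RMA and Partek. Their versions, and the genome build, are not given in the sources used. The deposited workbook of the authors' comparisons holds p-values, ratios, fold changes, splicing p-values and numbers of markers (the probe groups named in the text). From it only symbols and numbers of markers were used.

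Named clusters that averaged 5 or more (log2) in AdipoQ-LPL or Control mice, 20208 of them, were fitted with limma 3.58.1 in R 4.3.3 and adjusted by Benjamini-Hochberg at a threshold of 0.05, without a covariate, with the array set as a fixed term, and in each set alone. Single genes within a set were compared by exact permutation tests of the difference of means, and correlations by 100000 permutations within genotype (Python 3.11.15, numpy 2.4.6, scipy 1.17.1, pandas 2.3.3, matplotlib 3.10.9, statmod 1.5.0 for array weights). The scripts were tested on simulated data.

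The genes, the lists and the array sets were chosen with earlier results of these data known, and all 35 listed genes are named. Of the 106 other pathway genes, the rule named the 4 of lowest p in each direction, Ppara and Ppargc1a. Others named at an unadjusted p under 0.05, and the cilia genes, were chosen after their values were seen. Alternatives were no floor, the methods' t-test, an intensity trend, array weights, centring, quantile normalization, blocks by set, number run and replicate number, means over clusters, the study's thresholds and omission of each mouse. The omission of 3 mice with high cilia genes and of 4 with high hepatocyte or epididymal markers was chosen after seeing the data.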

Additional observations from a re-analysis of the deposited data

Results flagged for a closer look

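In 19 of 136 groups, each 1 gene in 1 genotype and array set, a mouse lay far from the others by Dixon's ratio, where chance gives about 1 in 20, or 6.8. The groups share mice, and the rate over all clusters was not counted. The excess is therefore not shown to be particular to these genes. In the first set these were Cpt1a in AdipoQ-LPL 12 (lowest, 9.46), Cpt2 in AdipoQ-LPL 12 (highest, 10.1), Hadhb in AdipoQ-LPL 6 (lowest, 5.25), Acox3 in AdipoQ-LPL 8 (highest, 8.64) and Acot1 in AdipoQ-LPL 8 (highest, 6.71). They also included Pex19 in AdipoQ-LPL 10 (lowest, 10.03) and Ucp2 in AdipoQ-LPL 7 (highest, 9.15). Control 3 was lowest for Crat (10.5) and Abcd2 (12.3) and highest for Acox3 (8.69) and Acot1 (7.14).

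In the second set the values were Cpt2 in AdipoQ-LPL 2 (highest, 10.3), Hadh in AdipoQ-LPL 3 (lowest, 12.2) and Ucp3 in AdipoQ-LPL 1 (lowest, 7.92). Among Control mice, Control 12 was highest for Acadm (12.2) and Acadl (11.3), Control 7 was lowest for Echs1 (10.1) and highest for Acox3 (8.97), and Control 10 was lowest for Hsd17b4 (10.7). Of the 19 values, 8 came from AdipoQ-LPL 8, Control 3 and Control 7, the mice of high cilia genes.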

How the results depend on the processing

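Over all mice no listed gene passed the adjusted threshold under any alternative but array weights. With array weights 24 passed, 26 had an unadjusted p under 0.05, 2 were above 0 and the median was -0.21, with Crat turned to -0.21. Genes with an unadjusted p under 0.05 numbered 2 with an intensity trend, with quantile normalization, with means over clusters and in the first set, 4 with centring and with the set as a block without the number run that held no Control mice, 5 with the number run as a block and 7 in the second set. Genes above 0 numbered 23 with centring (median 0.030), 17 with quantile normalization (0.000783), 17 with the set as a block (0.0063), 19 with that block and centring (0.023), 25 with the number run as a block or left out (0.045), and 28 in the second set (0.079). Of all clusters, 21.1% were above 0 over all mice, 61.7% with centring and 53.7% with the set as a block. With that block and centring 61.7% were, and in the second set 57.5%. At an unadjusted p under 0.05 were 8.1% of all clusters in the first set, and 6.5% were higher in the second. For settings without a share of all clusters, a change in the count cannot be told from a shift of the whole array.

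With the set as a block, 4 genes had an unadjusted p under 0.05 without that run. In the first set the number was 1 with centring, 0 without that run, 5 without the 3 mice of high cilia genes (6 above 0) and 1 without the 4 mice of high hepatocyte or epididymal markers, and in the second set 2 without those 4 mice. Omission of each mouse gave 1 to 3 genes at an unadjusted p under 0.05 over all mice (6 to 12 above 0, median -0.10 to -0.05), 1 to 5 with the block (13 to 22, -0.01 to 0.03), 0 to 6 in the first set (7 to 14, -0.09 to -0.02) and 5 to 9 in the second (24 to 29, 0.06 to 0.11), with 0 passing the adjusted threshold. No share of all clusters is given for the settings of this paragraph, so these counts cannot be told from a shift of the whole array. The cause of these changes was not tested. The correlation of Etfa and Etfb in the first set was 0.66, and that of Pdk4 and Acot1 in the second -0.58, without 2 mice, and the rank correlation of Pdk4 and Acot1 was -0.78.

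The replicate numbers did not pair the mice: in 12 pairs the correlation of deviations ran from -0.40 to 0.38, with 1 above 0.1. With the replicate number as a block, 0 genes passed, 1 had an unadjusted p under 0.05, 11 were above 0 and the median was -0.07. The second set holds 4 AdipoQ-LPL mice, and the number of arrays limits what could be detected.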
